A study of Mus musculus with 19 samples.

Results

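CD4 T cells that carried both a reporter of interleukin-2 (GFP) and a reporter of Foxp3 (RFP) were compared with CD4 T cells that carried neither. The 9 arrays were chosen by the population written in their titles, 4 of GFP+RFP+ cells (replicates 1, 3, 4 and 5) and 5 of GFP-RFP- cells, out of 19 arrays in the series. All mice were adult females of the C57Bl/6 background with the genotype Tg IL-2-GFP x FOXP3mRFP, and the cells came from spleen and lymph nodes. The GFP+RFP+ cells are called IL-2-producing regulatory cells in their source names, although a cell type tag calls every sample conventional. How the reporter alleles were built, how cells were gated and whether animals were pooled are not given in the sources used here. The labels do not say that replicates are separate animals, so a p-value here sets a difference against the spread of these samples, and that spread may be technical. The other 10 arrays, 5 each of GFP+RFP- and GFP-RFP+ cells, entered the choice of probes for scaling and detection, the estimate of spread, the side-by-side levels at the end and the interaction of the reporters.

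Interleukin-2 is the growth factor that activated conventional CD4 T cells secrete and that cells bearing its high-affinity receptor consume. Foxp3 is the lineage factor of regulatory T cells (Treg), which depend on interleukin-2 from other cells, and Foxp3 is known as a repressor of the Il2 gene. GFP+RFP+ cells therefore carry marks that usually lie on different cells.

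The arrays carry 60-base probes. The reporter genes, Foxp3 and Il2, and the pair of genes with the smallest p-values, Coq10a and Timm9, were read by the probes whose first 30 bases follow, 5′ to 3′, as deposited.
Foxp3: attatgtgttggagtgtgcctgaacagctc
Il2: atggatagccttctgtcaaagcatcatctc
Coq10a: tagtaacttcctgacacagagatactggct
Timm9: gggaacctacaataaacttacagaaacctg
In mm9 the whole probes lie at chrX:7172301-7172360 (plus strand) for Foxp3, chr3:37020012-37020071 (minus strand) for Il2, chr10:127800356-127800415 (minus strand) for Coq10a and chr12:72226471-72226530 (minus strand) for Timm9.

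GFP+RFP+ arrays held fewer detected probes and less signal than GFP-RFP- arrays. The software's flag for probes well above background was set for 32.2% ± 4.94 (SD, n = 4) of probes on GFP+RFP+ arrays and for 40.6% ± 2.87 (SD, n = 5) on GFP-RFP- arrays, and the ranges, 26.1% to 38.0% and 37.8% to 44.9%, overlapped by one array (difference -8.38, two-sided exact permutation p = 0.0317). With 1 array left out the difference stayed at -10.3 to -6.33, and 2 of 9 such comparisons kept an exact p under 0.05. The 75th percentile of processed signal, over the 6610 probes detected on all 19 arrays, was 5268 ± 843 in GFP+RFP+ cells and 14931 ± 2296 in GFP-RFP- cells (two-sided exact permutation p = 0.0159, and 0.0317 for both measures after adjustment over 2 tests). Levels below are log2 signals with each array's own 75th percentile set to 0, and on that scale the 75th percentile itself differed by -1.503, which the scaling takes out of every GFP+RFP+ minus GFP-RFP- difference. On those levels arrays correlated at r = 0.64 to 0.69 among GFP+RFP+ cells, 0.69 to 0.74 among GFP-RFP- cells and 0.55 to 0.65 between the populations. Replicate 1 of GFP+RFP+ had the lowest share of detected probes and was scanned apart from the other arrays of its slide. The part of detection, signal, slide and scan in the results below was not tested beyond the alternatives given.

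**Figure D1:**
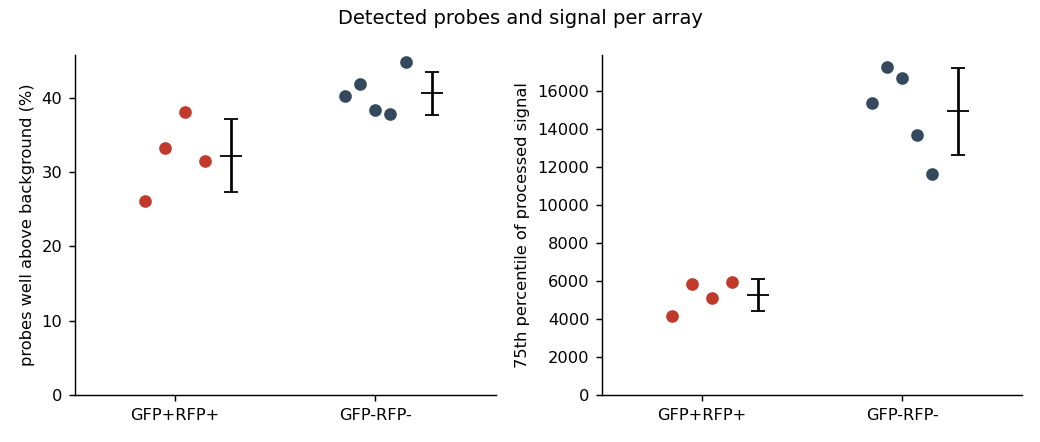
Percent of probes well above background (left) and 75th percentile of processed signal (right), 1 point per array, with mean and SD as a bar beside the points. GFP+RFP+ arrays lie between 4141 and 5966 on the right, below every GFP-RFP- array (11650 to 17264).

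The transcripts of the reporter genes did not differ past the threshold. Foxp3 gave processed signals of 62.0, 130, 104 and 37.0 on the GFP+RFP+ arrays, against 42.5, 55.7, 72.4, 76.0 and 71.7 on the GFP-RFP- arrays. Those signals overlapped, and after scaling all 4 GFP+RFP+ levels lay above all 5 GFP-RFP- levels, with a difference of 1.76 ± 1.17 (SE; limma adjusted p = 0.365). Within slides the Foxp3 difference was 2.40, 2.26 and 0.01, so the pair of arrays on the third slide showed none. Il2 gave 6.27, 14.5, 5.25 and 98.0 in GFP+RFP+ cells, against 7.26, 808, 17.8, 2309 and 3.26 in GFP-RFP- cells. Its probe was well above background on 1 of 4 and 2 of 5 arrays, with the highest signals in GFP-RFP- cells, and the difference was -0.53 ± 2.07 (limma adjusted p = 0.905). The populations were sorted by reporter protein, and the transcript levels on these arrays do not separate them by Il2.

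Of 20534 genes tested, 923 were called higher in GFP+RFP+ cells, 4.49% of all, and 329 lower, 1.6% of all (limma, Benjamini-Hochberg adjusted p under 0.05). Without adjustment, 3486 were higher and 1719 lower at p under 0.05. The directions differed in kind. Lower genes had a median difference of -6.51 on the log2 scale (range -10.63 to -1.38), and 163 of 329 were detected on none of the 4 GFP+RFP+ arrays, while 313 were detected on all 5 GFP-RFP- arrays. Higher genes differed by a median of 2.14 (1.06 to 5.95), had a median level of -5.74 in GFP+RFP+ cells, against -7.97 in GFP-RFP- cells, and had a usual gene symbol in 405 of 923 cases, against 239 of 329 lower genes. Among all 20534 genes tested, 11663 had a usual symbol. Of the higher genes, 537 were detected on all 9 arrays and 161 on no GFP-RFP- array, and the share of genes called higher was 11.6% among the brightest (mean level above -1 over the 19 arrays) and 4.63% among the dimmest (up to -9). The groups did not overlap for 862 of the higher and 278 of the lower genes. These genes were called by a difference between the same arrays, so this is no separate support. The share without overlap among all genes tested was not counted.

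Under each of 5 other scalings, 90 of the 923 higher and 212 of the 329 lower genes were still called. With no scaling between arrays all 329 lower genes were still called lower, while 19 of the 923 higher genes were still called higher. Of the higher genes, 783 had an unscaled difference above 0. Bright genes made up 180 of the higher calls (levels above 0 in GFP-RFP- cells), and their unscaled differences ran from -0.44 to 1.16 with a median of -0.04. Among GFP+RFP+ against GFP-RFP- genes the split of higher to lower calls was 90 to 328 with median centring, 2516 to 352 with the 75th percentile over all probes, 2252 to 502 in the authors' series table, 6194 to 592 with normexp and 19 to 1801 with no scaling. Each call also rests on few arrays: without GFP+RFP+ replicate 1, 3 or 4 the fit called 255, 212 or 178 genes, without replicate 5 it called 2677, and without GFP-RFP- replicates 1 to 5 it called 272, 257, 269, 407 and 718. With the percent of detected probes as a covariate 6 genes were called, among them Coq10a, Timm9 and Ranbp2, all lower. Called in every one of 9 fits that each left out 1 of these arrays, and also under 5 other scalings, were 48 higher and 46 lower genes.

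**Figure D2:**
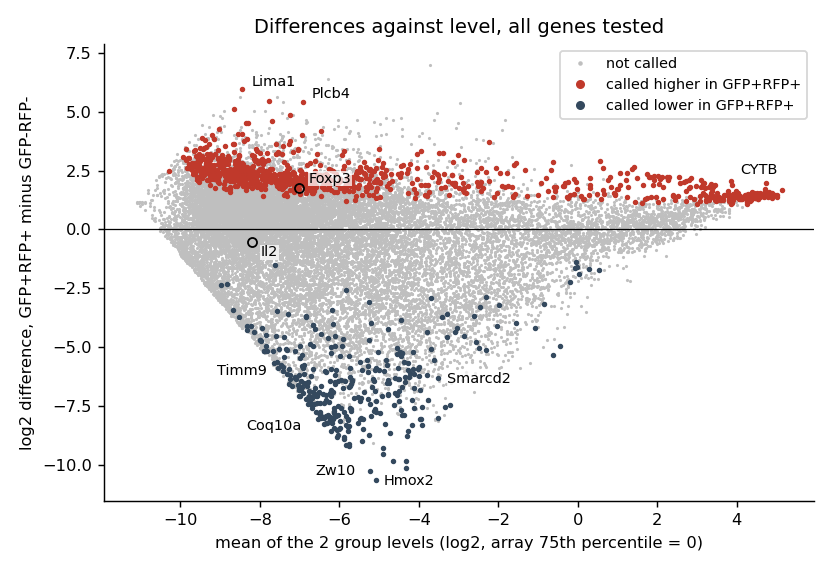
Log2 difference (GFP+RFP+ minus GFP-RFP-) against the mean of both group levels for 20534 genes, where 0 on the horizontal axis is the array's 75th percentile. Called lower genes (329) lie far below the zero line at middle levels, called higher genes (923) form a band at small positive differences that runs from dim to bright genes, and Foxp3 and Il2 (circled) are not called.

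Among the genes that fell, Coq10a, which encodes a coenzyme Q-binding protein of the mitochondrion, had the smallest p-value of all. It was named after its values were seen. Its signals were 6.75, 3.95, 2.99 and 23.6 on the GFP+RFP+ arrays, against 5104, 5021, 14970, 2039 and 6263 on the GFP-RFP- arrays. It was detected on 1 of 4 and 5 of 5 arrays with no overlap, a difference of -8.19 ± 0.60 (limma adjusted p = 2.69e-06). Timm9, a small chaperone of the mitochondrial import machinery that was named in the same way, gave 6.75, 3.59, 2.74 and 2.80 in GFP+RFP+ cells, against 599, 938, 300.5, 640.2 and 775 in GFP-RFP- cells. It was at least 12.4-fold lower (limma adjusted p = 0.000178), although another probe of the gene was detected on 2 arrays of each population and differed by 0.66.

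A bound such as this sets the mean of the bright population against the lowest signal that counted as detected on each dim array, since the gene was not well above background on any of them. Undetected arrays of the bright population entered its mean at their measured signal. The fold is therefore a strict bound only where every bright array detected the gene. The largest difference was that of Hmox2, the constitutive heme oxygenase, with 6.48, 4.14, 2.95 and 2.93 in GFP+RFP+ cells, against 30493, 37551, 20706, 23704 and 2977 in GFP-RFP- cells. All GFP+RFP+ arrays were at background for this probe, which makes it at least 357-fold lower (limma adjusted p = 0.00988), and a dimmer probe of the gene was detected on 1 of 4 arrays. Zw10, a kinetochore protein of the spindle checkpoint, gave 6.66, 4.02, 3.13 and 2.87 in GFP+RFP+ cells, against 23767, 14125, 25492, 11450 and 5086 in GFP-RFP- cells. It was at least 280-fold lower (limma adjusted p = 0.00611). Pecam1, which encodes the adhesion molecule CD31, gave 8.91, 5.34, 6.16 and 2.93 in GFP+RFP+ cells, against 29161, 28544, 8948, 2570 and 1402 in GFP-RFP- cells, at least 156-fold lower. No GFP+RFP+ array detected it and GFP-RFP- arrays spread over a wide range.

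Genes of mitochondrial respiration stood among the 12 largest falls. Ndufs1, a core subunit of respiratory complex I, gave 6.76, 3.59, 3.21 and 70.6 in GFP+RFP+ cells, against 28927, 20603, 35631, 15653 and 15942 in GFP-RFP- cells. One GFP+RFP+ array detected it, and it fell by 9.82 ± 1.503 on the log2 scale (limma adjusted p = 0.00589). Surf1, an assembly factor of cytochrome c oxidase, was at least 361-fold lower, and Uqcr10, a subunit of complex III, fell by 9.28 on the log2 scale with 1 of 4 GFP+RFP+ arrays detected; 2 other probes of Uqcr10 differed by -4.71 and -4.76. Other large falls were Rab27a, a small GTPase of secretory vesicles (at least 273-fold), Kifc1, a minus-end kinesin (134-fold), Izumo4 (131-fold), Pts, an enzyme of tetrahydrobiopterin synthesis (111-fold), and Cwc27, a cyclophilin of the spliceosome (94.6-fold). Of these 12, Hmox2, Zw10, Ndufs1 and Pecam1 stayed called whichever of the 9 arrays was left out. The other 8 lost their call without at least 1 of them.

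**Figure D3:**
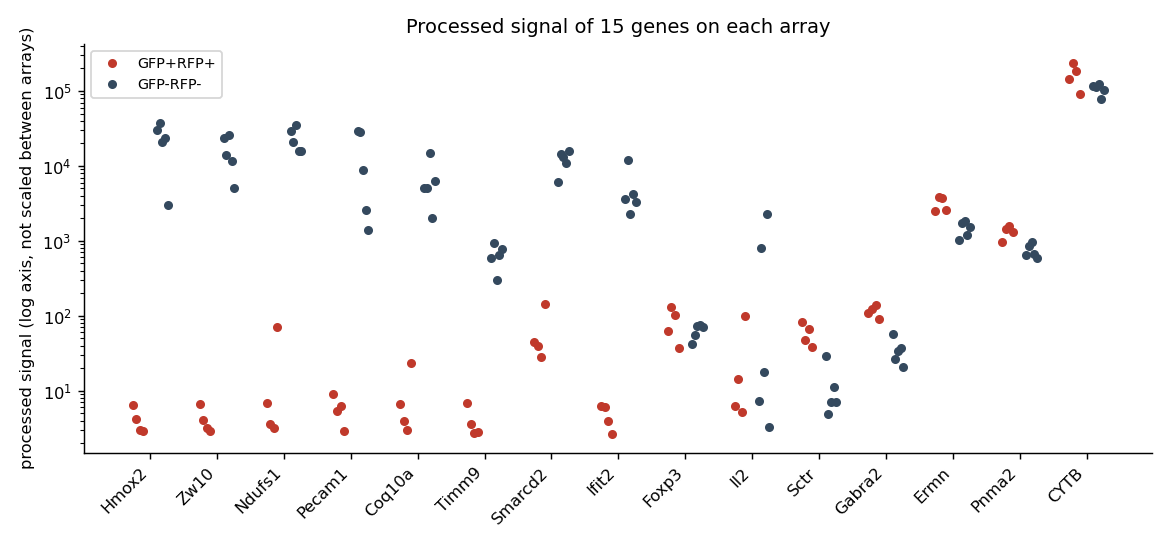
Processed signal (log axis, not scaled between arrays) of 15 genes on each array, GFP+RFP+ in red to the left and GFP-RFP- in dark blue to the right. For the first 8 genes every GFP+RFP+ point is below every GFP-RFP- point, for Foxp3 and Il2 the points overlap, for Sctr, Gabra2 and Ermn every GFP+RFP+ point is the higher, and for Pnma2 and CYTB the points overlap before scaling.

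A fall could also be read where both populations had signal: 30 lower genes were detected on all 9 arrays. Smarcd2, a subunit of the BAF chromatin remodeller, gave 44.1, 40.0, 28.1 and 143 in GFP+RFP+ cells, against 6032, 14500, 13170, 10932 and 15787 in GFP-RFP- cells. The populations were well apart (-6.29 ± 0.87, limma adjusted p = 0.00486), while a dimmer probe of the gene differed by -0.37. By p, the others of the 6 leading genes of this kind were Psd4, an exchange factor for Arf6 (-5.01), Chtf8, part of an alternative replication clamp loader (-3.70), Ap1g1, an adaptor of clathrin vesicles (-3.59), Numa1, a spindle pole protein (-3.21), and Saraf, a regulator of store-operated calcium entry (-3.18). For Ap1g1 another probe, detected on 4 of 4 and 4 of 5 arrays, went the other way at 3.05. Smarcd2 alone of these 6 kept its call without each array in turn.

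Several of the 12 largest increases rested on 1 or 2 arrays of very high signal. Lima1, an actin-binding protein, gave 20.3, 618, 5.55 and 2733 in GFP+RFP+ cells, against 6.59, 5.22, 7.66, 4.62 and 3.75 in GFP-RFP- cells. Only replicates 3 and 5 were above background. With the other GFP+RFP+ arrays at their measured signal, the mean was 14.9-fold above the detection limit of GFP-RFP- arrays (limma adjusted p = 0.0313). That fold is not a strict bound. Ndst1, a sulfotransferase of heparan sulfate synthesis, reached 5743 on replicate 5 and 40.2 or less on the other GFP+RFP+ arrays, against 6.57 to 20.5 in GFP-RFP- cells, and other probes of it differed by -0.71 and 1.20. Plcb4, a phospholipase C, gave 1951 on replicate 1, 969.8 on replicate 5 and 72.5 or less on the other GFP+RFP+ arrays, against 11.5 to 23.5 in GFP-RFP- cells (5.41 ± 1.30), with other probes at 0.30 to 1.63. Arl13b, a GTPase of cilia detected on 3 of 4 GFP+RFP+ arrays, was 19.96-fold higher on the same reckoning, with another probe at -0.93. Lgr6, a receptor for R-spondins, was at least 9.65-fold higher. Gpr27, an orphan receptor, differed by 4.03. Celf5, an RNA-binding protein, was 5.52-fold higher, Ctxn1 7.88-fold, Hoxb2, a homeobox factor, 4.38-fold and Sgcz 3.67-fold. Each of these last genes was detected on 3 of 4 GFP+RFP+ arrays, so their folds are not strict bounds. All folds are on scaled levels, from which the shift of -1.503 in the 75th percentile was taken out.

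Other increases were of genes detected on every GFP+RFP+ array. Sctr, the secretin receptor, gave 82.2, 47.9, 66.6 and 37.8 in GFP+RFP+ cells, against 29.1, 4.88, 7.14, 11.3 and 7.13 in GFP-RFP- cells. The groups were apart, at least 7.10-fold (limma adjusted p = 0.0102), while a second probe was detected on 1 and 4 arrays and differed by 0.61. Gabra2, a subunit of the GABA receptor, gave 110, 122, 139 and 89.2 in GFP+RFP+ cells, against 56.3, 26.8, 33.8, 37.1 and 20.5 in GFP-RFP- cells (3.29 ± 0.55, limma adjusted p = 0.00733). Ermn, a cytoskeletal protein of myelinating cells, gave 2468, 3834, 3718 and 2602 in GFP+RFP+ cells, against 1040, 1713, 1841, 1210 and 1513 in GFP-RFP- cells (2.62 ± 0.40), and its other probe differed by 2.13. Pnma2 (2.33), Ddx25, an RNA helicase of the testis (2.39), Fam178b (2.25) and the signalling adaptor Gab3 (2.20) were the others with the smallest p among higher genes detected on all 9 arrays. Ermn, Pnma2, Gabra2, Gab3, Fam178b, Ddx25, Sctr and Hoxb2 kept their calls without each array in turn.

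The detection contrast of GFP+RFP+ and GFP-RFP- genes used the detection flag alone. Of 28274 genes with a probe detected on at least 1 of the 19 arrays, 256 (0.905%) were detected on none of 4 GFP+RFP+ arrays and all 5 GFP-RFP- arrays, and 9 (0.0318%) on all 4 GFP+RFP+ and none of the GFP-RFP- arrays. With the software's other flag, for positive and significant signal, these counts were 105 and 42, and with 1 array left out they were 305 to 485 and 10 to 78. The brightest of the 256 with a usual symbol were Surf1, Rab27a, Zw10, Pecam1 and Kifc1. The 9 held 4 with a usual symbol. Lgr6 gave signals of 105, 717, 14.9 and 30.0 on the GFP+RFP+ arrays, and Hoxd11, a homeobox factor, Lzts1 and Ms4a14 gave 14.8 to 58.8, against 4.43 to 28.4 for these 3 genes in GFP-RFP- cells, so this difference lay close to background. Lower total signal in GFP+RFP+ cells and fewer transcripts per cell cannot be told apart here, nor can fewer cells of a type and less RNA per cell.

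Genes that mark Treg and genes that Treg are known to repress lay on opposite sides, mostly short of the threshold. The lists that follow were described by their counts and medians, beside a median of 0.09 over all genes tested. Of 20534 genes tested, 10642 lay above 0. The median difference varied with level, from 0.75 among the dimmest genes (mean level up to -9 over the 19 arrays) to -1.18 at levels of -5 to -3. Most of the 34 lists had medians below that of all genes, such as spliceosome genes at -2.16. Lying below 0 was therefore not particular to genes that Treg repress. Of 22 Treg signature genes tested, 17 were above 0 and 5 below (median 1.03), with 1 called higher, against 4.49% of all genes. That 1 was Tnfrsf9, the costimulatory receptor 4-1BB, whose signals of 78819, 64602, 85243 and 92330 in GFP+RFP+ cells, against 86176 to 114773 in GFP-RFP- cells, were lower before scaling, and whose other probe was near background. Il2ra, the high-affinity chain of the interleukin-2 receptor, and Ikzf2, which encodes Helios, differed by 3.64 ± 1.96 and 5.04 ± 2.29 (limma adjusted p = 0.259 and 0.178). Both are well known Treg genes and were named with their values already seen. Their probes were each detected on 2 of 4 and 1 of 5 arrays. Other well known Treg genes lay below 0: Icos (-6.18, with other probes at 0.15 and 3.87), Tnfrsf18 (-2.52) and Ctla4 (-0.43), none called. Within slide 2 the median of the Treg signature relative to all genes was -0.15. The 8 suppressive molecules tested had a median of 1.09 with none called.

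All 12 genes of the Treg-repressed list that were tested lay below 0 (median -2.52). Of these 12, 2 were called lower, where 1.6% of all genes were. Igfbp4, a binding protein for insulin-like growth factors that is abundant in naive T cells, gave 16.7, 32.6, 33.1 and 18.1 in GFP+RFP+ cells, against 13524, 2707, 17935, 6925 and 1014 in GFP-RFP- cells. It was detected on 3 of 4 and 5 of 5 arrays without overlap (-6.32 ± 1.24, limma adjusted p = 0.0142) and kept its call without each array in turn. Dusp6, a phosphatase of the ERK kinases, gave 74.6, 96.5, 97.8 and 3.31 in GFP+RFP+ cells and 2931 to 5807 in GFP-RFP- cells (-5.25 ± 1.36, limma adjusted p = 0.0359), and lost its call without any single one of the 9 arrays. The naive and recirculating list, which shares members with it, had 13 of 14 genes below 0 (median -3.35) with Igfbp4 the 1 called. Ccr7, a chemokine receptor of lymph node homing that was named after its values were seen, differed by -3.44 ± 1.96 (limma adjusted p = 0.287).

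Effector and signalling lists held 1 or 2 lower calls each, where 1.6% of all genes were called lower. Of 18 effector-memory genes, 10 lay below 0 (median -0.76) and 2 were called: Maf, a transcription factor of interleukin-4 and interleukin-10 producing cells (-4.35), and Anxa1, annexin A1 (8.01-fold). The probe of Anxa1 was detected on 4 of 5 GFP-RFP- arrays, so its fold is not a strict bound. Among 17 early T cell receptor response genes, 15 lay below 0 (median -2.34), with Junb, a subunit of the AP-1 factor, called: 454, 3.42, 5.17 and 8.89 in GFP+RFP+ cells, against 13145, 4451, 17291, 10126 and 15359 in GFP-RFP- cells (-7.88 ± 2.20, limma adjusted p = 0.0445). Of 29 T cell receptor signalling genes, 23 lay below 0 (median -0.95). Those called were Csk, the kinase that restrains Lck (-6.40 ± 1.38), and Cd247, the zeta chain of the receptor (-7.53 ± 2.10), the second with 1 GFP+RFP+ array at 2664 and 3 at 6.63 to 11.4. The defining T cell genes Cd3e and Cd4 differed by -1.62 ± 1.62 and -1.72 ± 0.95 and were not called.

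None of the 17 genes of the interleukin-2 and STAT5 response was called (median -0.24), where 4.49% of all genes were called higher and 1.6% lower. Of 15 genes of the interleukin-2 receptor and its signalling, 10 lay below 0 (median -1.24) and Il15ra was called higher at 1.23, with unscaled signals of 75231 to 104793 in GFP+RFP+ cells and 103973 to 120301 in GFP-RFP- cells and another probe at -0.04. No member was called in T cell cytokines (10 tested, median -0.83), Th1 (11, -1.66), Th17 (6, -0.38), follicular helper cells (10, -0.97), chemokine receptors (10, -1.64), apoptosis regulators (17, -0.90) or glycolysis and the citrate cycle (24, -1.35). In Th2 (7, 0.50) the 1 call was Maf. Co-inhibition and anergy (15, 0.61) held 2 lower calls, the diacylglycerol kinase gene Dgkz (-3.69 ± 0.92, detected on all 9 arrays) and the receptor Cd160 (at least 7.48-fold lower). Integrins and adhesion (17, -2.27) held Pecam1, lower, and Itga1, the alpha 1 integrin, higher at 2.33. In the cell cycle list (19, -0.55) Zw10 was the call, and in the TNF receptor superfamily (16, 0.11) Tnfrsf9. Single calls in lists of this size are not read as a result about the list.

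Of 18 genes of the type I interferon response, 12 lay below 0 (median -2.57) and 2 were called lower, against 1.6% of all genes, while 6 lay above 0 with none called. Ifit2, which encodes an interferon-induced protein that binds RNA, gave 6.20, 6.04, 3.98 and 2.64 in GFP+RFP+ cells, against 3645, 12115, 2296, 4273 and 3311 in GFP-RFP- cells. It was at least 86.8-fold lower (limma adjusted p = 0.0174). Its neighbour Ifit1 gave 6.48, 177, 5.00 and 12.8 in GFP+RFP+ cells, against 1609, 2814, 8527, 2005 and 874 in GFP-RFP- cells (-5.64 ± 1.42, limma adjusted p = 0.0339). The populations were apart for both genes. The call of Ifit2 was lost without GFP+RFP+ replicate 4, and that of Ifit1 without any single one of 6 arrays (GFP+RFP+ replicates 1 and 4 and GFP-RFP- replicates 1 to 4). As both called genes are neighbours known to respond to interferon, the 250 bases before the start of Ifit1 are shown (RefSeq, GRCm38.p6, chr19:34640639-34640888, plus strand), with matches to the letters GAAA, any 2 bases and GAAA again, the core repeat bound by interferon-activated factors, in capitals.
Ifit1: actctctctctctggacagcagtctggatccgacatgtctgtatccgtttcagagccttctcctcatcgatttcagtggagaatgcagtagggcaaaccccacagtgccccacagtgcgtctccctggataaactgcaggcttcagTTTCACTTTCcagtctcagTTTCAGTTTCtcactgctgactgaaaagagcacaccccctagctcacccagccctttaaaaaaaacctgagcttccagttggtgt
Both matches lie on the minus strand and begin 104 and 85 bases before the start. Searched on both strands, 2.98% of all 32851 such windows and 3.46% of the 27025 genes with one held the motif. Of the interferon list, 16 tested genes had a window and 7 held a match, 1 of the called pair (Ifit1) and 6 of the 14 not called; the windows of Ifit2 held none.

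Genes of RNA processing, protein turnover and mitochondria had medians below 0 and 1 to 3 lower calls a list, where 1.6% of all genes were called lower. Of 33 spliceosome genes, 27 lay below 0 (median -2.16) and 3 were called lower: Snrpb, a core Sm protein (-7.20 ± 1.36, limma adjusted p = 0.0112), Srsf2, a splicing factor (at least 87.9-fold for this probe, with another detected on all 9 arrays and at -2.37), and Prpf8, the central scaffold (-3.86). Of 18 genes of the RNA exosome and decay, 15 lay below 0 (median -2.83). Exosc8, an exosome ring subunit, gave 6.44, 4061, 4.84 and 3.16 in GFP+RFP+ cells, against 6819 to 17304 in GFP-RFP- cells (-7.53), and its partner Exosc9 was called higher at 1.48 with signals of 96259 to 124056 and 94929 to 131318, which overlap before scaling. Chromatin regulators (25, median -0.46) held Rnf2, a Polycomb ubiquitin ligase, called at least 5.12-fold lower.

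In the nuclear-encoded respiratory chain and ATP synthase, 63 of 74 genes lay below 0 (median -2.88), with Ndufs1, Uqcr10 and the complex I subunit Ndufa3 (-5.38 ± 1.04) called lower. Over all genes 1.6% were called lower and 4.49% higher. Mitochondrial ribosomal proteins had 60 of 72 below 0 (median -2.03) and 1 call, Mrpl57 (-5.94). Proteasome subunits had 28 of 41 below 0 (median -1.67) and 2 lower calls, Psmd8 (at least 134-fold) and the catalytic subunit Psmb5 (-5.18), whose other probe was at -6.28. Cytosolic ribosomal proteins, bright on every array, centred near the median of all genes: 48 of 78 lay above 0 (median 0.18), and this median turned to below that of all genes with quantile normalization, the series table and normexp. Their calls disagreed: Rplp1 was lower (-1.72), Rpl10l higher (2.80, near background) and Rpl13a higher by 1.22, while 2 other probes of Rpl13a differed by -3.89 and -3.68.

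**Figure D4:**
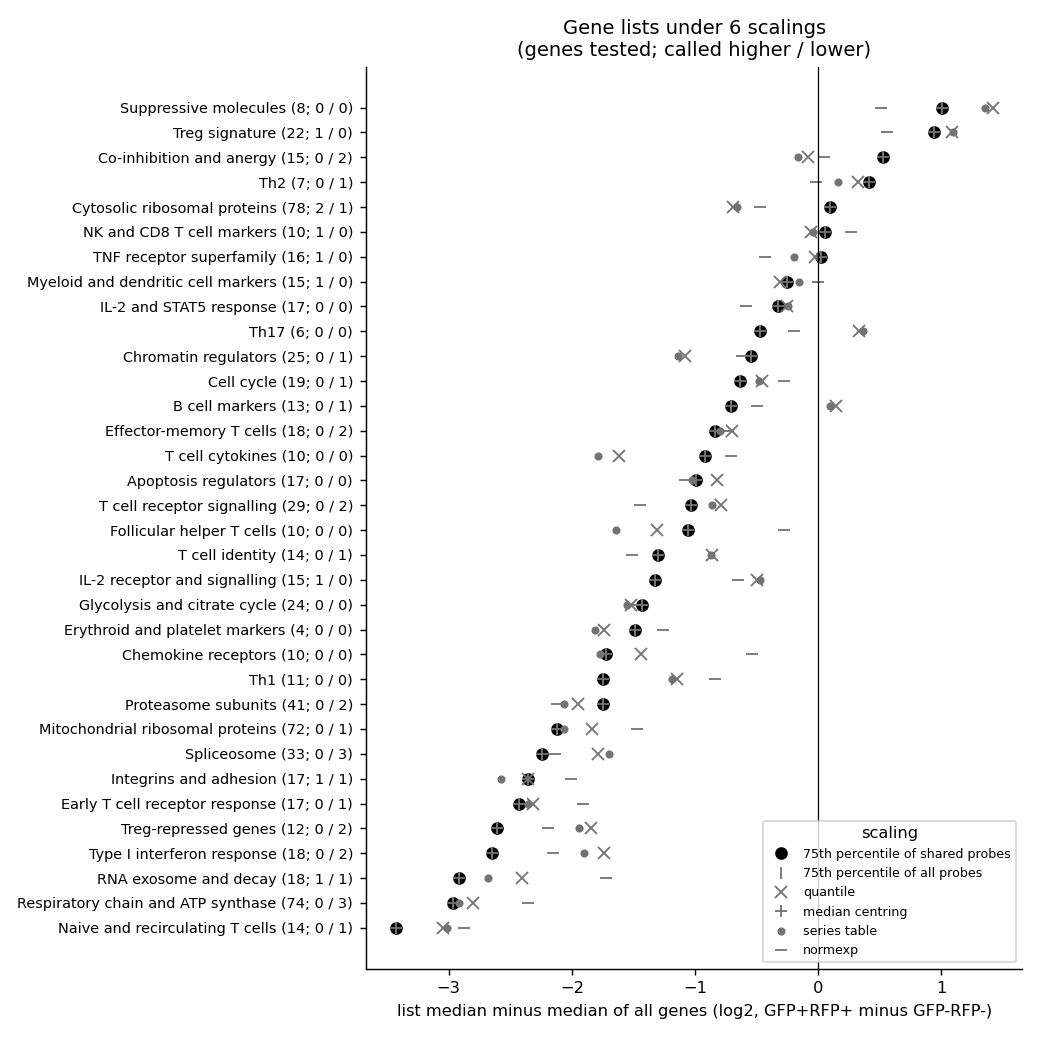
Median log2 difference of 34 gene lists minus the median of all genes, under the scaling used here (black) and 5 others, with the genes tested and the calls higher and lower in brackets. Most lists lie to the left of 0 whatever the scaling, the Treg signature and suppressive molecules lie to the right, and lists near 0, such as cytosolic ribosomal proteins, change side.

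Summed levels of markers of other cell types overlapped between the populations, except for the myeloid list. In that list 8 of 15 genes tested lay below 0. B cell markers (13 tested, median -0.62) had 8 genes below 0, and the side of their median relative to all genes turned with quantile normalization and the series table. The summed level of the list, with the 75th percentile of each array as 1, was 1.62 to 4.32 in GFP+RFP+ cells and 2.28 to 3.96 in GFP-RFP- cells. Of 16 B cell markers on the array, 8 to 9 were detected on each GFP+RFP+ array and 9 to 12 on each GFP-RFP- array. Among the defining genes, Ms4a1 and Blk were detected on at most 1 array. Cd79b, a chain of the B cell receptor, was called lower (-7.70 ± 1.6): 7.78, 30.3, 15.6 and 3.17 in GFP+RFP+ cells, against 12013, 7908, 12753, 1428 and 5023 in GFP-RFP- cells. Myeloid and dendritic markers (15, -0.16) summed to 18.2 to 35.7 in GFP+RFP+ cells and 12.1 to 17.3 in GFP-RFP- cells, and held Itgam, whose signals were 66372 to 104659 and 72402 to 109804 and which was called higher at 1.41. Such a sum weighs bright genes most, and Itgam averaged 4.10 and 2.69 on the log2 scale. Before scaling Itgam differed by -0.09, and the order of the sums is not read as more myeloid transcripts. NK and CD8 T cell markers (10, 0.14) summed to 0.30 to 1.74 and 1.07 to 2.00, with the NK receptor gene Klra1 called higher at 1.84 and other probes of it at 0.00 and -0.55. Erythroid and platelet markers (4, -1.40) summed to 0.02 to 8.33 and 3.74 to 9.41, none called. T cell identity genes (14, -1.21) summed to 11.6 to 15.4 and 14.6 to 17.8, with Cd247 called. Each of these lists held at most 1 call, where 4.49% of all genes were called higher and 1.6% lower. The part of other cells in the results was not tested.

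The levels of the called genes in the single-colour populations are given as a description, since those arrays shared in the scaling and the estimate of spread behind the calls. The 329 lower genes had a median level of -9.42 in GFP+RFP+ cells, one of -8.35 in GFP-RFP+ cells, one of -4.54 in GFP+RFP- cells and one of -2.28 in GFP-RFP- cells, so the Foxp3 reporter-positive populations lay together at the bottom. For 273 of them the GFP-RFP+ mean was nearer to the GFP+RFP+ mean than to the GFP-RFP- mean, and for 101 both single-colour means were. The 923 higher genes had medians of -5.74, -6.46, -7.37 and -7.97 in the same order, with the GFP-RFP+ mean nearer to GFP+RFP+ for 840 genes and both single-colour means nearer for 73. GFP-RFP+ arrays also had a lower share of detected probes, 22.0% to 39.4%.

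**Figure D5:**
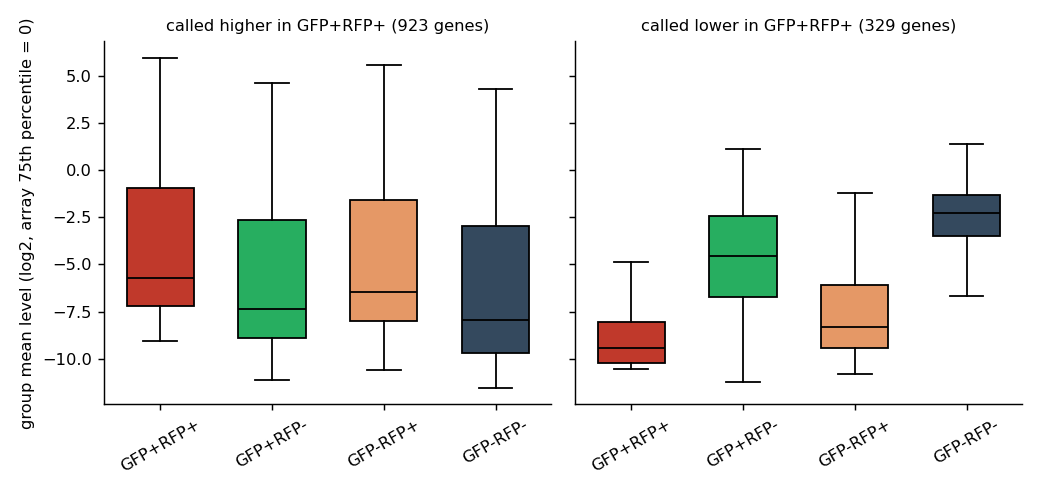
Group mean levels (log2, array 75th percentile as 0) of the 923 called higher (left) and 329 called lower genes (right) in the 4 populations, where boxes span the quartiles, lines mark medians and whiskers reach up to 1.5 times the box's height beyond it. Lower genes are low in both RFP+ populations and higher in both RFP- populations, with medians from -9.42 in GFP+RFP+ to -2.28 in GFP-RFP- cells.

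Whether carrying both reporters added up from carrying each was tested as an interaction, in which 2 genes (0.00974% of those tested) were called by limma and 1008 had an unadjusted p under 0.05. Coq10a was detected on 1 of 4 arrays of GFP+RFP+ cells, on no array of GFP+RFP- cells, on none of GFP-RFP+ cells either, and on all 5 arrays of GFP-RFP- cells, with mean levels of -9.63, -11.03, -10.49 and -1.43. It was thus bright in GFP-RFP- cells and at background in each of the others (interaction 10.46 ± 0.82, limma adjusted p = 8.5e-06). With both single-colour populations at background, the sum of their differences would lie below what the arrays can read. For Coq10a the interaction therefore cannot show whether the reporters add up. Msl3, a subunit of a histone acetyltransferase complex, averaged -0.74, -2.16, -10.71 and -2.22 in the same order and was undetected in GFP-RFP+ cells alone (interaction 9.92 ± 0.83, limma adjusted p = 1.26e-05). Between GFP+RFP+ and GFP-RFP- cells Msl3 differed by 1.48 ± 0.61, which was not called.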

How the data were processed

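RNA of sorted cells was amplified by global PCR of cDNA, labelled with Cy3 and hybridized to 1-colour whole mouse genome arrays, per the labels' protocols. The scanner intensity values that the authors deposited came from Feature Extraction 10.7.3.1 by Agilent (per the submitters' processing notes), background-subtracted with no scaling between arrays, per the file headers. The authors also deposited a series matrix of log2 values, whose normalization no source used here states, and which served as an alternative.

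Spots flagged as outliers were left out (1530 on the 9 arrays) and repeated spots averaged. Log2 processed signal was scaled to each array's 75th percentile over the 6610 probes that all 19 arrays detected. Probes had to be detected on 4 or more arrays (28094 passed), and the probe with the highest mean stood for a gene. No probe used was saturated on these arrays. One limma model with moderated variances took in the 4 groups together (limma 3.58.1, R 4.3.3). Calls used a Benjamini-Hochberg adjusted p under 0.05. Single values were compared by exact permutation (scipy 1.17.1), with tables and figures from Python 3.11.15, pandas 2.3.3, numpy 2.4.6 and matplotlib 3.10.9. In data simulated on 20534 genes for this comparison, log2 differences of 2, 4 and 8 were called for 14.3%, 49.3% and 77.2% of changed genes, with 5 false calls. The simulation resampled each gene's residuals apart, without shifts shared across an array. Its false calls therefore do not measure error from scaling, slide or scan. The number of arrays limits the precision.

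Named genes were Foxp3, Il2, the 12 largest calls per direction, the 6 smallest p per direction among genes detected on all 9 arrays, the 5 brightest per direction of the detection contrast and up to 4 called members per list. Others were named after their values were seen, as stated. Members and lists were chosen with earlier results of these data known. Titles give the replicate number after an M, whose meaning is not stated. Same-numbered replicates deviated together at r of 0.006 to 0.038, and other pairs at -0.034 to 0.024. No clear pairing by number was seen, but such weak correlations over many dim genes cannot exclude it. Alternatives tried were other scalings, filters, blocks, priors, weights and leaving out each array. No scaling between arrays, a common floor and leaving out arrays for the interaction were chosen after seeing the data. Some genes that the rule names are not reported here.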

Additional observations from a re-analysis of the deposited data

Results flagged for a closer look

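In 28 of 222 sets of replicates checked (12.6%, where chance gives about 1 in 20), 1 array lay far from the others of its population. Levels are log2 with the array's 75th percentile as 0. GFP+RFP+ replicate 5 was far above the others for Ndst1 (-0.055), Cd247 (-1.16) and Tlr2 (-2.77), and far below them for Ap1g1 (-6.34), Ms4a14 (-8.34), Dusp6 (-10.82), Rpl10l (-9.74), Psmb5 (-8.49) and CYTB (3.94). Replicate 3 was far above for Exosc8 (-0.53), Slfn1 (-0.96), Tmem50a (-5.25) and Il9 (-6.26), replicate 4 for Il17ra (-4.16) and Snrpb (-7.74), and replicate 1 for Kifc1 (-9.20) and Cd160 (-9.37), the last pair not above background. Among GFP-RFP- arrays, replicate 4 was far below for Arl13b (-11.79) and Mrpl57 (-8.78) and above for Rplp1 (1.89) and Psmd8 (-0.23). Replicate 5 was below for Hmox2 (-1.97) and Exosc8 (-0.77), replicate 3 for Kifc1 (-4.99), and replicate 2 for Izumo4 (-2.61) and Numa1 (-1.48), while replicate 2 was above for Il2ra (-5.64) and Ikzf2 (-7.20).

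Limma's interaction of the reporters was called for Coq10a (10.46, adjusted p = 8.5e-06) and Msl3 (9.92, adjusted p = 1.26e-05). For Coq10a both single-colour populations were at background, so the sum of their differences could not be read.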

How the results depend on the processing

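The count of called GFP+RFP+ against GFP-RFP- genes moved with nearly every setting. Against 1252 calls, it was 2868 with the 75th percentile over all probes, 2466 with quantile normalization, 418 with median centring, 2754 in the series table, 6786 with normexp, 5107 with no filter, 2326 with slide and 2017 with scan day as a block, 3880 with array weights, 433 on arrays with at least 30% of probes detected and 6 with percent detected as a covariate. Within slide 1 it was 0. Each slide holds 1 or 2 arrays of a group, and slides 2 and 3 hold 1 GFP+RFP+ array each, so their calls are not counted. Of the called genes, 908 higher and 323 lower kept their direction in all 3 slides. As the calls came from a difference between the same arrays, this is no separate support. The share that kept its direction among all genes tested is not given. Leaving out 1 of 19 arrays gave 178 to 2677, with 2048 and 2079 without GFP-RFP+ replicates 2 and 4. The replicate block gave 653 calls (404 higher and 198 lower shared with the fit without it). Whether replicate numbers pair the samples is not known, and the main fit used no pairing. The median of all genes was 0.94, 0.28, -0.61, 0.28 and 0.64 under the first 5 scalings, in the order above.

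In the detection contrast of GFP+RFP+ and GFP-RFP- genes, those detected in GFP-RFP- cells alone numbered 105 with the flag for positive and significant signal, against 256, and 305 to 485 with 1 array left out; those detected in GFP+RFP+ cells alone numbered 42, against 9, and 10 to 78. The percent of probes well above background differed by -9.58, -1.77 and -13.4 within slides 1, 2 and 3, and by -10.3 to -6.33 with 1 array left out, where 2 of 9 exact p-values stayed under 0.05. The 75th percentile of signal differed by -11028, -10367 and -5684 within slides 1, 2 and 3. The interaction gave 2 to 13 calls with 1 array left out. Of 34 lists, 27 had medians below that of all genes, and 21 to 31 did under the alternatives.

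Signs turned in 19 of 4284 values of named genes. With no scaling, Tnfrsf9 was -0.26, Il15ra -0.27, Exosc9 -0.0253, Itgam -0.0942, Rpl13a -0.28 and Msl3 -0.0236, and the mean of its probes gave Rpl13a -2.12. Il2 was 0.32 over all probes, 1.45 and 5.88 within slides 1 and 3, 0.13 with the covariate and -1.49 to 0.82 with 1 array left out. Within slide 1, Slc4a1 was 1.61. Within slide 2, Il2ra was -2.12 and Cd3e 0.73 (0.69 with the covariate), and within slide 3, Msl3 was -0.58 and Cd4 0.87. Relative list medians turned for B cell markers (0.15 with quantile, 0.10 in the series table, 0.85 within slide 3), Th2 (-0.0159 with normexp), the Treg signature (-0.15 within slide 2) and the median of Effector-memory T cells (0.23 within slide 3, -1.36 to 0.058 with 1 array left out). They also turned for Th17 (0.33 with quantile, 0.37 in the series table), Co-inhibition and anergy (-0.083 and -0.17 with these, -1.62 and -1.49 within slides 2 and 3), the TNF receptor superfamily (-0.43 with normexp), NK and CD8 T cell markers (-0.061 with quantile) and cytosolic ribosomal proteins (-0.69 with quantile), and within slide 3 for T cell cytokines (0.72), Th1 (0.94), Cell cycle (0.73) and IL-2 and STAT5 response (0.97). Of 92 called genes named, 24 kept their call without each of the 9 arrays and 45 under 5 other scalings. The causes were not tested. Dim probes limit the lower genes, whose size is a bound where no GFP+RFP+ array and every GFP-RFP- array detected them.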

Other observations

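Some genes outside the lists, all named after their values were seen, were called with roles in T cells. Lower in GFP+RFP+ cells were Cd96, a receptor of the nectin family (at least 78.3-fold), Il17ra, a receptor chain for interleukin-17 (-5.94), Slfn1, a gene of quiescent T cells (-6.84), the costimulatory ligand gene Cd80 (-4.65, with another probe at 1.59), and Hif1a and Egln1, the oxygen-responsive factor (-4.55, with another probe at 0.97) and the hydroxylase that marks it (at least 15.9-fold). Rictor (at least 15.1-fold), Tsc2 (-6.83) and Rraga (at least 87.8-fold), regulators of the mTOR kinases, were lower too, as were Mettl14 (at least 64.8-fold) and Fto (-7.24), which write and erase methyl marks on RNA, and Ranbp2, a nuclear pore protein (at least 79.8-fold). Higher after scaling were Il9 (3.30), Tlr2 (3.21, with 1 array at 874 and 3 at 40.8 to 47.5, against 19.9 to 40.9), Fosl2, an AP-1 subunit (2.08), and the cell cycle inhibitor gene Cdkn2a (2.61). Signals of Il9 were 26.2 to 76.2 in GFP+RFP+ and 3.27 to 38.9 in GFP-RFP- cells. Those of Cdkn2a were 20.6 to 79.2 and 13.4 to 19.9, so both genes lay close to background. Fosl2 gave 1618 to 3351 and 1270 to 2095, which overlap before scaling. Of these 16 genes, Ranbp2 alone kept its call without each of the 9 arrays.

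The 13 protein genes of the mitochondrial genome were all above 0, by 1.54 to 2.06 (median 1.85), and 12 were called higher, against 4.49% of all genes, while 63 of 74 nuclear genes of the respiratory chain were below 0. Before scaling the median difference of the 13 was 0.35. ATP6 gave 318906, 419454, 252232 and 171101 in GFP+RFP+ cells, against 180785 to 232062 in GFP-RFP- cells, and lost its call without any single one of GFP+RFP+ replicates 1, 3 and 4. COX1 (1.64) lost its call without any single one of 7 arrays, and CYTB (2.06) kept its call without each array in turn. This family was looked at after its values were seen, as were the olfactory receptors, of which 19 of 217 were called higher and none lower (median 1.28, at levels of -7.93 in GFP+RFP+ cells, against -9.03 in GFP-RFP- cells). Before scaling the median difference of the olfactory receptors was -0.22, and 42 of the 217 were detected on all 9 arrays.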
